A study of Arabidopsis thaliana with 9 samples.

Results

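RNA of whole dark-grown Arabidopsis thaliana seedlings carrying cop1-4 together with BBX22-GFPox was compared with RNA of wild type (Col-0) seedlings. The comparison took the 3 arrays titled for the combined genotype and the 3 titled for wild type, 6 of the 9 arrays in the series, and described 15922 of 22746 probe sets, those that passed a filter on level. All seedlings were of the Columbia (Col-0) ecotype, were 4 days old and had been plated on half-strength medium with sucrose and kept dark throughout. The 3 genotypes were cop1-4 BBX22-GFPox, cop1-4 and wild type, with 3 biological replicates each, numbered 1 to 3, and 1 array per sample. The combined genotype and cop1-4 share the cop1-4 allele, so a difference of the combined genotype from wild type can come with either element. The promoter behind BBX22-GFPox, read here as an overexpressed GFP fusion of BBX22, and the number of lines are not stated in the labels. No check of the genotypes on the transcripts of COP1, BBX22 or HY5 was made, since these 3 genes were not analysed here. Nothing in the labels ties the biological replicates to separate sowings, and the p-values cover only the spread among these arrays.

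As background, COP1 is a RING-type ubiquitin ligase that works with SPA proteins in darkness and marks light-promoting transcription factors for degradation. The bZIP factor HY5 and several B-box zinc-finger proteins, BBX22 among them, are such targets. Wild type seedlings in darkness are etiolated, with a long hypocotyl, closed cotyledons and etioplasts in place of chloroplasts, whereas cop1-4, a weak viable allele, gives short and partly opened seedlings in darkness. BBX22 promotes seedling development of the light-grown kind together with HY5.

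The values are hybridisation signals on a linear scale, and differences were taken on log2(signal + 24.5), where 24.5 is the 20th percentile of all signals. The offset understates changes of dim probe sets. A probe set was called at a Benjamini-Hochberg adjusted p under 0.05 in limma, fitted over the 9 arrays with 1 mean per genotype, and "rose", "fell", "raised" and "lowered" are used for calls. Values per array are given in the order of replicates 1, 2 and 3, and log2 changes are cop1-4 BBX22-GFPox minus wild type with n = 3 arrays each. In whole seedlings, fewer cells of a type and less RNA per cell cannot be told apart.

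In each genotype the replicate 1 array differed from the other two. In cop1-4 BBX22-GFPox, the replicate 1 array correlated with replicates 2 and 3 at 0.842 and 0.845 over log2 levels, against 0.989 between replicates 2 and 3. In wild type the same values were 0.926 and 0.921, against 0.982. Principal components 1 and 2 took 46.0% and 35.1% of the variance of the 9 arrays, and on component 2 the replicate 1 arrays lay at 88.3 in cop1-4 BBX22-GFPox, 87.9 in cop1-4 and 10.3 in wild type, with all other arrays below 0. Summed signals of EXPA7 and EXPA18, expansins of root hairs, were 101, 949 and 766 in cop1-4 BBX22-GFPox, 196, 1049 and 905 in cop1-4 and 47.0, 609.5 and 553 in wild type, lowest in replicate 1 of each. The late embryogenesis abundant genes LEA18 and LEA4-5 ran the other way, and LEA18 had 1692, 36.8 and 45.6 in cop1-4 BBX22-GFPox, against 2078, 69.5 and 108 in wild type. The part of these differences in any result was not tested. Deviations of same-numbered arrays from their genotype means correlated at 0.581, 0.422 and 0.435 between cop1-4 BBX22-GFPox and wild type for replicates 1, 2 and 3, so the replicate number was also fitted as a block, and a list's counts from that fit are given beside it where they differ by over 1.5 times. Arrays of different numbers correlated as much where both were replicate 2 or 3, at 0.452 for replicate 2 of cop1-4 BBX22-GFPox with replicate 3 of wild type and 0.436 for replicate 3 with replicate 2, and below 0 where 1 of them was replicate 1.

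The combined genotype changed a large share of the transcripts measured. Of 15922 probe sets, 3427 were called (21.5%), 1561 of them raised (9.8%) and 1866 lowered (11.7%). At least a 2-fold change was seen for 2504 of the calls (15.7% of the probe sets), with 1232 raised and 1272 lowered. At least an 8-fold change was seen for 67 raised and 75 lowered, and at least a 16-fold change for 17 raised and 23 lowered. Over all tested probe sets the median log2 change was -0.11, and it was 1.37 among those raised and -1.22 among those lowered. With the replicate block 6479 were called (40.7%), 3011 raised and 3468 lowered, or 18.9% and 21.8% of the probe sets, and all 3427 calls were among them. Scaling the arrays to a common median turned the excess of lowered over raised calls round, with 1852 raised and 1510 lowered, and quantile normalization gave 1807 raised and 1741 lowered.

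**Figure D1:**
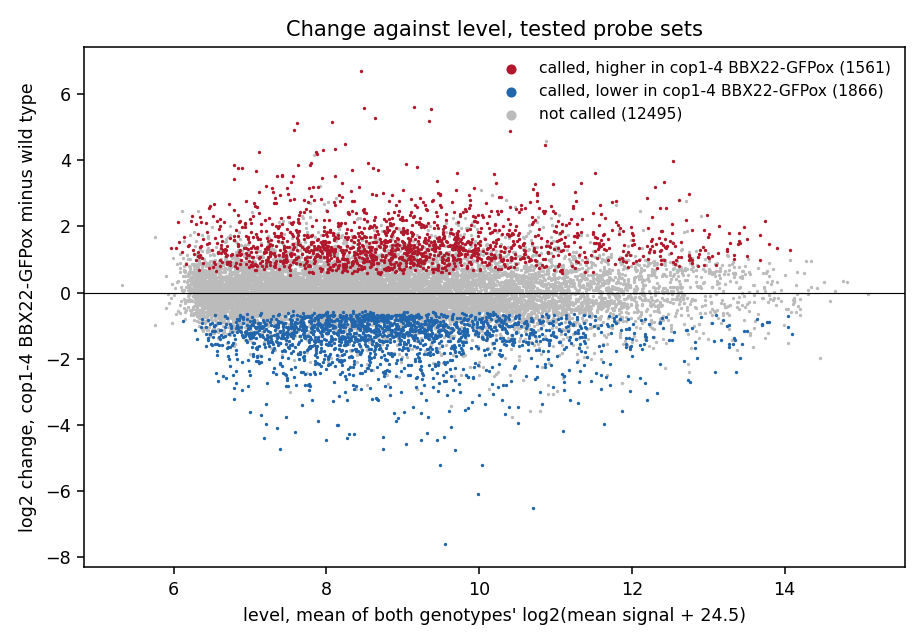
Change against level for the 15922 tested probe sets. The horizontal axis is the level, the mean of both genotypes' log2(mean signal + 24.5), and the vertical axis is the log2 change of cop1-4 BBX22-GFPox over wild type; red points were called higher (1561), blue points called lower (1866) and grey points were not called. Calls in both directions lie across the whole range of levels.

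The calls were made on these same arrays, so a direction shared by the 3 same-numbered pairs largely follows from the calling and is a description. Of the 3427 calls, 3426 had the same sign in all 3 pairs. Raised probe sets differed by a median of 1.34, 1.34 and 1.42 on the log2 scale in pairs 1, 2 and 3, and lowered ones by -1.21, -1.17 and -1.27. Between 24.9% and 28.2% of all tested probe sets were at least 2-fold apart in each pair. Many calls were lost in a fit with 1 array fewer, since 1509 of the 3427 held when any 1 of the 9 arrays was left out. The total ran between 1819 without cop1-4 BBX22-GFPox replicate 3 and 4820 without cop1-4 replicate 1. Fitted to replicates 2 and 3 alone, 9590 probe sets were called (60.2%), with 3426 of the 3427 calls among them. These arrays had also entered the fit that made the 3427 calls.

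Gene names were available for a part of the array. Of the tested probe sets, 8701 had 1 gene, 329 several and 6892 none in the annotation used here. Taking the brightest probe set of a gene, 8598 genes were tested, 857 of which rose (9.97%) and 979 fell (11.4%), 21.4% in all, with a median log2 change of -0.08. Irrespective of calls, the 3 arrays of the combined genotype all lay above the 3 of wild type for 19.2% of the probe sets (19.9% of the genes) and all below for 24.6% (23.9% of the genes). In the fit with the replicate block, 19.5% of the genes were called raised and 20.8% lowered. Counts of called list members below are to be read beside the shares of all genes called in the same fit. Without the block, the share called raised lay between 8.78% and 10.6% on nuclear chromosomes 1 to 5 and the share called lowered between 10.8% and 12.2%.

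Genes of the photosynthetic membrane with a call were all raised. Of 11 tested genes for photosystem subunits and electron transport, 7 rose and 0 fell, with a median log2 change of 1.36, against 9.97% raised over all genes. PSAN, the lumenal subunit N of photosystem I, had 16693, 11448 and 12696 in cop1-4 BBX22-GFPox, against 2561, 2138 and 2115 in wild type, a log2 change of 2.56 ± 0.39 (SE; limma adjusted p = 0.0032). The lowest array of the combined genotype was above the highest of wild type, and replicate 1 was the brightest in both. PSBY and PSBW, small subunits of photosystem II, changed by 1.81 and 1.57, and PSAE-1, a stromal subunit of photosystem I, by 1.03. NdhL and NdhN, subunits of the chloroplast NADH dehydrogenase-like complex that carries electrons around photosystem I, changed by 2.17 and 2.04. The remaining raised member was the locus AT1G52220, at 1.36. The group's median was 2.03 in the replicate 1 pair and 1.30 over pairs 2 and 3. Calls of PSAN, PSBY, PSBW and AT1G52220 held without any 1 array, whereas those of NdhL, NdhN and PSAE-1 were lost without 2, 6 and 6 of the 9 arrays taken singly, with adjusted p up to 0.069, 0.11 and 0.093.

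Antenna genes were split. LIL3:1, a light-harvesting-like protein that stabilises enzymes of chlorophyll synthesis, had 2805, 3491 and 3531 in cop1-4 BBX22-GFPox, against 857, 1478 and 1552 in wild type (log2 change 1.36, adjusted p = 0.0087). LHCB4.3, an isoform of the minor antenna protein CP29, rose by 1.23 on the log2 scale, with adjusted p up to 0.1 when 1 array was left out. Its relatives LHCB4.1 and LHCB4.2 were not called: LHCB4.1 had 25044, 13247 and 13069.5 in cop1-4 BBX22-GFPox, against 7648, 7394 and 9199 in wild type (adjusted p = 0.097, 0.024 with the replicate block) and LHCB4.2 had 9930.1, 6420.0 and 8408 in cop1-4 BBX22-GFPox, against 7268, 6632 and 5542 in wild type (adjusted p = 0.65). LIL3:2 was not called either, at -0.24. In all, 2 of 5 antenna genes rose and 0 fell, against 9.97% and 11.4% over all genes.

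Of 3 Calvin cycle genes 2 rose and 0 fell, and the 1 photorespiration gene tested rose. RCA, the activase that keeps Rubisco active, had 26179.8, 20919 and 23540.2 in cop1-4 BBX22-GFPox, against 4882, 9092 and 7671 in wild type (log2 change 1.74 ± 0.29, adjusted p = 0.0046). SBPASE, a phosphatase of the Calvin cycle, had 12121, 6903 and 8817 in cop1-4 BBX22-GFPox, against 1468, 3228 and 2530.0 in wild type, a log2 change of 1.97. Both groups of arrays were apart in each, and both calls held without any 1 array. PRK, which makes the Rubisco substrate, had a log2 change of 1.22 with adjusted p = 0.15, and 0.043 with the replicate block. HPR, the peroxisomal hydroxypyruvate reductase of photorespiration, had 22651, 8638 and 9251 in cop1-4 BBX22-GFPox, against 2146, 2234 and 1754 in wild type. Its log2 change was 3.39 in the replicate 1 pair and 2.16 over pairs 2 and 3, and its call (adjusted p = 0.028) was lost without 6 of the 9 arrays taken singly, with adjusted p up to 0.09.

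In chlorophyll synthesis, 3 of 9 genes rose and 1 fell, against 9.97% and 11.4% over all genes. With the replicate block 5 rose and 1 fell, against 19.5% and 20.8%. The gene that fell was PORB, one of the light-dependent protochlorophyllide oxidoreductases and a main protein of etioplast membranes. PORB had 1109, 678 and 558 in cop1-4 BBX22-GFPox, against 8669, 13371 and 15508 in wild type, a log2 change of -3.98 ± 0.34 (adjusted p = 0.00033). The lowest wild type array was far above the highest array of the combined genotype. The genes that rose were CHLI2, a magnesium chelatase subunit, at 1.39, HEME1, a uroporphyrinogen decarboxylase, at 1.06, and HEMB1, a 5-aminolevulinate dehydratase, at 0.93. CHLI2 had 792, 1389 and 1714 in cop1-4 BBX22-GFPox, against 282, 533 and 627 in wild type, and its call and that of HEMB1 were lost without 4 and 2 of the arrays taken singly, with adjusted p up to 0.092 and 0.057. The other members were HEMA2 at -0.23, GSA1 at 0.55, HEME2 at 0.92, CHLM at 1.35 and hemf2 at -0.25, with adjusted p = 0.093 for CHLM and 0.13 for HEME2, and 0.019 and 0.011 with the replicate block. In carotenoid synthesis Z-ISO, the zeta-carotene isomerase, rose by 1.09 on the log2 scale (adjusted p = 0.038, up to 0.13 with 1 array left out), and LYC, a lycopene cyclase, was at 0.74 (adjusted p = 0.079, 0.007 in the blocked fit).

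Calls among nuclear genes for building and maintaining chloroplasts were raised as well. In the list of import, division and expression, 5 of 7 rose and 0 fell, against 9.97% and 11.4% over all genes, with a median log2 change of 1.35. FTSZ2-1 and FTSZ2-2, which form the ring at which chloroplasts divide, had 1071, 1089 and 1018 in cop1-4 BBX22-GFPox, against 389, 437 and 379.5 in wild type for FTSZ2-1 and 363, 479.6 and 481 in cop1-4 BBX22-GFPox, against 132, 168 and 152 in wild type for FTSZ2-2. Their log2 changes were 1.35 and 1.40 (adjusted p = 0.0015 and 0.0032), and the arrays of the genotypes did not overlap. CLPP4, a subunit of the plastid Clp protease, rose by 1.52, and the chaperonin gene Cpn60beta4 and the protease gene NCLPP7 by 1.31 and 0.79. Cpn60beta2 was not called, and its replicate 1 pair differed by 0.18 and the other pairs by 1.96 on the log2 scale (adjusted p = 0.34). Calls of CLPP4, Cpn60beta4 and NCLPP7 were lost without 3, 7 and 3 of the 9 arrays taken singly, with adjusted p up to 0.059, 0.12 and 0.099.

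A family of plastid assembly and RNA processing factors, put together after the values had been seen, held 17 raised and 0 lowered genes of 24, with a median of 1.35. Over all genes 9.97% rose and 11.4% fell. The family also held NdhL, already counted among the photosystem and electron transport genes, so the counts of these lists overlap. PIFI, a protein of the chloroplast NADH dehydrogenase-like pathway, had 7937, 2985 and 4340.0 in cop1-4 BBX22-GFPox, against 549.9, 505 and 501 in wild type, a log2 change of 3.12 ± 0.49 (adjusted p = 0.0036). PSB27, an assembly factor of photosystem II, had 20341, 9502 and 11929 in cop1-4 BBX22-GFPox, against 3589.8, 3542 and 3446 in wild type. CRR21, a pentatricopeptide repeat protein for editing of a plastid transcript, had 441, 502 and 429 in cop1-4 BBX22-GFPox, against 107, 118 and 95.4 in wild type. CCB3, a factor for attaching haem to cytochrome b6, changed by 2.06, and CaS, a calcium-sensing protein of the thylakoid, by 1.95. LPA1 and LPA2, which help to assemble photosystem II, changed by 1.14 and 1.41. The arrays of both genotypes were apart in all of these, and 9 of the 17 calls held without any 1 array. The call of PSB27 did not, with adjusted p up to 0.061, and neither did that of LPA2, at 0.054.

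Calls among transcripts of the plastid genome itself were also raised. Of 69 plastid-encoded genes, 15 rose (21.7%) and 0 fell, against 9.97% and 11.4% over all genes. With the replicate block 48 rose and 0 fell, against 19.5% and 20.8% over all genes. The median log2 change was 0.76, with 0.96 in the replicate 1 pair and 0.63 over pairs 2 and 3. psbA, which encodes the D1 reaction centre protein, had 16469, 3135 and 3364 in cop1-4 BBX22-GFPox, against 1394, 474 and 411 in wild type, a log2 change of 3.05 ± 0.82 (adjusted p = 0.03, up to 0.1 with 1 array left out). Replicate 1 was the brightest in both genotypes. psbK and psaJ, for small subunits of the photosystems, had 11772, 10303 and 10266 in cop1-4 BBX22-GFPox, against 4674, 5509.7 and 5114 in wild type for psbK and 13443, 12234 and 14713 in cop1-4 BBX22-GFPox, against 6448, 6165 and 4992 in wild type for psaJ, with adjusted p = 0.0063 and 0.0045. The genes petG and ccsA, for a cytochrome b6f subunit and a factor of cytochrome synthesis, rose by 1.44 and 1.39, and lost their calls without 7 and 4 of the arrays taken singly, with adjusted p up to 0.14 and 0.1. The brightest plastid gene, atpB, for the beta subunit of ATP synthase, was not called, at 37448, 28630.3 and 30654 in cop1-4 BBX22-GFPox, against 24880.2, 25786 and 26514 in wild type. Of 12 mitochondrion-encoded genes 0 rose and 0 fell, or 1 and 2 with the replicate block, with a median of -0.23. Priming of the labelling reaction is not described in the labels used here.

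In the list of redox and detoxification 7 of 29 genes rose and 3 fell, against 9.97% and 11.4% over all genes. The lowered share was near that over all genes. With the replicate block 11 rose and 3 fell, against 19.5% and 20.8%. NTRC, a chloroplast NADPH-dependent thioredoxin reductase, had 1258, 2009 and 1998 in cop1-4 BBX22-GFPox, against 363, 448 and 535 in wild type, a log2 change of 1.90 ± 0.29 (adjusted p = 0.0032). The thioredoxins THX and TRXF2 changed by 1.69 and 1.54, the thioredoxin ATHM2 by 0.98 and the thylakoid ascorbate peroxidase TAPX by 1.53. The other raised members were the glutathione transferases GSTU23 and GSTL3, at 1.16 and 0.81. On the lowered side were AT5G66390, peroxidase 72 in the gene table, with 438, 763 and 687 in cop1-4 BBX22-GFPox, against 4130.4, 2267 and 2751 in wild type, AT2G41480, peroxidase 25, at -1.99, and PRXR1 at -1.38. All 3 lowered members belong to the peroxidases of the plant secretory pathway. TAPX, GSTU23, GSTL3 and PRXR1 lost their calls without 1 or more arrays, with adjusted p up to 0.081, 0.072, 0.11 and 0.056.

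**Figure D2:**
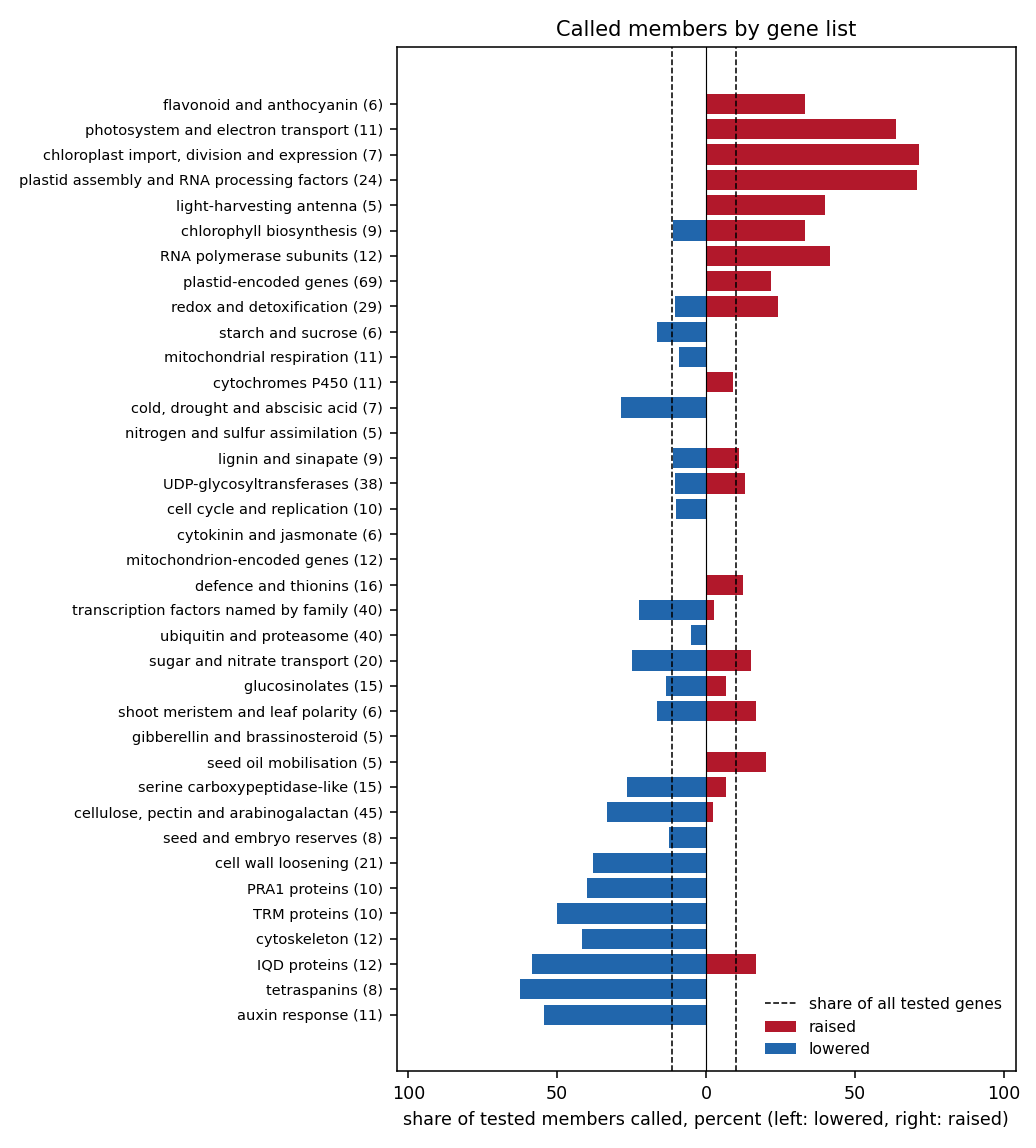
Share of tested members called raised (red, to the right) and lowered (blue, to the left) in each gene list with at least 5 tested genes, in percent, with the number tested in brackets and lists ordered by median log2 change. Dashed lines mark the shares over all 8598 tested genes, 9.97% raised and 11.4% lowered. The flavonoid list lies at the top, followed by chloroplast lists with raised members, and the auxin list lies at the bottom, next to the tetraspanin, IQD and cytoskeleton lists with lowered members.

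Genes of auxin response with a call were all lowered. Of 11 tested, 0 rose and 6 fell, against 9.97% raised and 11.4% lowered over all genes. The median log2 change was -1.45, with -1.60 in the replicate 1 pair and -1.37 over pairs 2 and 3. WES1 (GH3.5), an enzyme that joins auxin to amino acids and is itself induced by auxin, had 758, 335 and 305 in cop1-4 BBX22-GFPox, against 5651, 2147 and 2494 in wild type, a log2 change of -2.80 ± 0.43 (adjusted p = 0.0032). The lowest wild type array was above all arrays of the combined genotype. IAA20, a transcriptional repressor of the Aux/IAA family, had 117, 33.5 and 32.3 in cop1-4 BBX22-GFPox, against 406, 490.4 and 677 in wild type (log2 change -2.79, adjusted p = 0.0018). WAG2, a protein kinase related to PINOID that acts on auxin transporters, had 56.0, 128 and 131 in cop1-4 BBX22-GFPox, against 835, 1231 and 1371 in wild type. The remaining lowered members were GH3.3 at -2.14, IAA29 at -1.46 and LBD16, a factor of lateral root initiation, at -1.45. WAG2, GH3.3, IAA29 and LBD16 lost their calls without 6, 4, 7 and 7 of the 9 arrays taken singly, with adjusted p up to 0.082, 0.082, 0.12 and 0.15. The auxin synthesis gene YUC2 was at -0.30 (adjusted p = 0.36). HAT2, an auxin-induced homeodomain gene outside the list and chosen after its values were seen, had 271, 373 and 353 in cop1-4 BBX22-GFPox, against 1974, 1583 and 1610.2 in wild type.

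Among cell wall genes, all calls but 1 were lowered. Among expansins and xyloglucan-modifying enzymes, which loosen walls during cell growth, 0 of 21 rose and 8 fell, against 9.97% and 11.4% over all genes. The median was -0.69, with 6 members at a change above 0. EXPA9 had 446, 468 and 457 in cop1-4 BBX22-GFPox, against 2789, 3577 and 3610.3 in wild type, a log2 change of -2.79 ± 0.20 (adjusted p = 0.00018), and its 3 arrays of the combined genotype were nearly equal. EXPA8 had 249.8, 445 and 462 in cop1-4 BBX22-GFPox, against 4156, 4408 and 4548 in wild type, a log2 change of -3.47. The expansin-like genes EXLA2 and EXLB1 changed by -2.52 and -2.14, the xyloglucan endotransglucosylase XTH33 by -2.24, and EXPB1, EXPA4 and EXPA20 by -2.03, -1.72 and -1.19. Over pairs 2 and 3 the median of the list was -1.20, against -0.72 in the replicate 1 pair. Calls of EXPA8, EXPA9, EXLA2 and EXLB1 held without any 1 array, and those of XTH33, EXPB1, EXPA4 and EXPA20 did not, with adjusted p up to 0.093, 0.056, 0.054 and 0.076. EXPA7, the root hair expansin, was at 0.92 with adjusted p = 0.45.

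In the list of wall polysaccharide genes, 1 of 45 rose and 15 fell, against 9.97% and 11.4% over all genes, with a median of -0.57. With the replicate block 2 rose and 24 fell, against 19.5% and 20.8%. ATPMEPCRD, a pectin methylesterase, had 219, 129 and 109 in cop1-4 BBX22-GFPox, against 19069, 12273 and 16170.1 in wild type. Its log2 change of -6.51 ± 0.45 (adjusted p = 0.00016) was the most negative among probe sets with a gene. GH9B13, an enzyme of the cellulase family, had 9.5, 163 and 115 in cop1-4 BBX22-GFPox, against 1653, 2665 and 2567 in wild type, a log2 change of -4.56. PME61, another pectin methylesterase, had 25.3, 2.9 and 18.8 in cop1-4 BBX22-GFPox, against 648, 590.0 and 678 in wild type, so its mean in the combined genotype was under the offset. CSLC04 and CSLC5, synthases of the xyloglucan backbone, changed by -2.23 and -1.86, and TBL37, TBL38 and TBL39 of the polysaccharide acetyltransferase family by -1.50, -2.41 and -1.02. The raised member was CSLA03, a mannan synthase, at 749.6, 603 and 682 in cop1-4 BBX22-GFPox, against 273, 367 and 235 in wild type. Of the lowered calls, 9 held without any 1 array; among those named, CSLC04 and TBL38 did not, with adjusted p up to 0.075 and 0.067, nor did CSLA03, at 0.068.

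Calls among genes of microtubules were lowered too. Of 12 cytoskeleton genes 0 rose and 5 fell, against 9.97% and 11.4% over all genes, with a median of -0.88. With the replicate block 0 rose and 8 fell, against 19.5% and 20.8%. TUB9, a beta-tubulin, had 2557, 2601 and 2534 in cop1-4 BBX22-GFPox, against 4518, 4936 and 5051 in wild type, a log2 change of -0.91 ± 0.18 (adjusted p = 0.0087), with a narrow spread in both genotypes. TUB6 and TUB5 changed by -1.38 and -1.10. ATMAP65-6, a microtubule cross-linking protein, had 625, 387 and 364 in cop1-4 BBX22-GFPox, against 1875, 1477 and 1342 in wild type, and KINESIN-13A changed by -0.79. TUB1 had 177, 986 and 949 in cop1-4 BBX22-GFPox, against 3692, 6041 and 5254 in wild type, with adjusted p = 0.054, and 0.0027 with the replicate block. Calls of TUB5 and KINESIN-13A were lost without 6 and 4 of the arrays taken singly, with adjusted p up to 0.09 and 0.069.

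Further families around microtubules and membranes were looked at after the values had been seen, so their counts are descriptions. Of 12 IQD genes, for calmodulin-binding proteins many of which sit on microtubules, 2 rose and 7 fell. IQD22 had 154, 71.1 and 93.2 in cop1-4 BBX22-GFPox, against 594, 417 and 568 in wild type and IQD19 had 83.0, 120.2 and 122 in cop1-4 BBX22-GFPox, against 410.4, 415 and 454 in wild type, while IQD24 went the other way, with 669, 186 and 203 in cop1-4 BBX22-GFPox, against 61.9, 47.6 and 48.3 in wild type. Of 10 TRM genes, for proteins with the motif that recruits TONNEAU1 to microtubules, 0 rose and 5 fell, TRM22 at 65.5, 82.9 and 85.4 in cop1-4 BBX22-GFPox, against 282, 364 and 319 in wild type. Of 8 tetraspanin genes 5 fell and 0 rose (5 and 1 with the replicate block), and TET3 had 1058, 1156 and 965 in cop1-4 BBX22-GFPox, against 2556, 2637 and 2769 in wild type. Of 10 genes for PRA1 proteins, which act in vesicle traffic, 4 fell and 0 rose (7 and 0 with the replicate block), and PRA1.F1 had 141, 160.3 and 196 in cop1-4 BBX22-GFPox, against 611, 641 and 624 in wild type. In each of these named genes the genotypes' arrays did not overlap. Calls of IQD22, IQD19, TRM22, TET3 and PRA1.F1 held without any 1 array, and that of IQD24 did not (adjusted p up to 0.055).

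**Figure D3:**
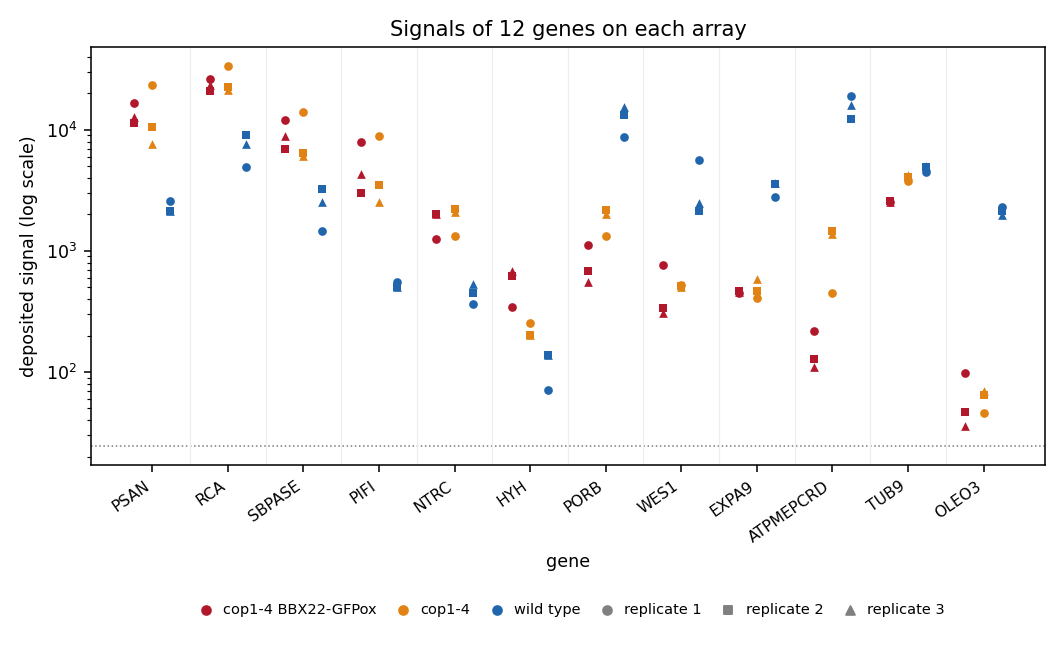
Deposited signals (vertical log axis) of 12 genes on each array, cop1-4 BBX22-GFPox in red, cop1-4 in orange and wild type in blue, with replicates 1, 2 and 3 as circles, squares and triangles and the offset of 24.5 as a dotted line. PSAN, RCA, SBPASE, PIFI, NTRC and HYH lie higher in cop1-4 BBX22-GFPox than in wild type on every array, and PORB, WES1, EXPA9, ATPMEPCRD, TUB9 and OLEO3 lie lower.

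Flavonoid genes depended on the replicate. The median of 6 tested genes was 0.24 in the replicate 1 pair and 2.09 over pairs 2 and 3, and 2 rose and 0 fell over all arrays, against 6 raised in the fit to replicates 2 and 3 alone, where 27.9% of all genes rose. CHIL, a chalcone isomerase-like protein that aids flavonoid synthesis, had 336, 3029 and 2988 in cop1-4 BBX22-GFPox, against 8.3, 153 and 156 in wild type, a log2 change of 3.88 ± 1.09 (adjusted p = 0.035, up to 0.12 with 1 array left out). UGT78D2, a flavonoid glucosyltransferase, had 529, 1424 and 1254 in cop1-4 BBX22-GFPox, against 103, 244 and 283 in wild type (adjusted p = 0.014, up to 0.058). DFR, the dihydroflavonol reductase of the anthocyanin branch, was not called (adjusted p = 0.22, 0.018 with the replicate block), at 56.2, 1509.5 and 1192 in cop1-4 BBX22-GFPox, against 40.0, 138 and 209 in wild type. In replicate 1 it was near the wild type level and in replicates 2 and 3 several times above it. The anthocyanin glycosyltransferase UF3GT followed the same pattern, with 13.1, 618 and 593 in cop1-4 BBX22-GFPox, against 9.0, 103 and 186 in wild type and adjusted p = 0.41. UGT78D1 and AT5MAT, also of flavonoid modification, were at 1.14 and 0.96 with adjusted p = 0.45 and 0.45.

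**Figure D4:**
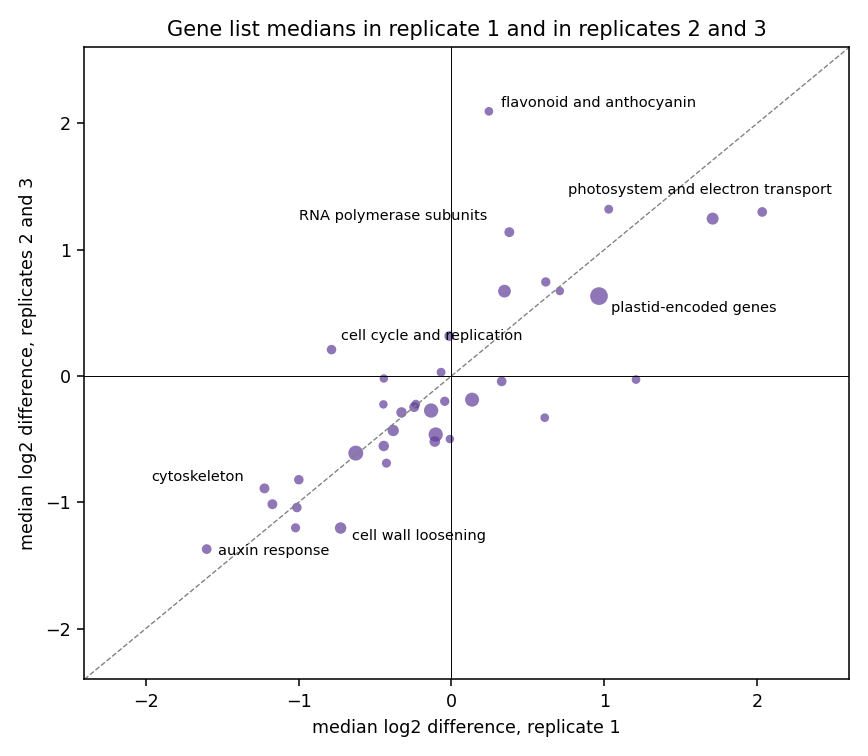
Median log2 difference of cop1-4 BBX22-GFPox from wild type over the members of each gene list with at least 5 tested genes, in the replicate 1 pair (horizontal) and over the pairs of replicates 2 and 3 (vertical), with point area growing with the number of genes and equal values on the dashed line. The photosystem list lies at 2.03 and 1.30, the auxin list at -1.60 and -1.37 and the flavonoid list at 0.24 and 2.09.

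Among other genes of secondary metabolism, changes went both ways. In the lignin and sinapate list 1 of 9 rose, UGT84A3, a glucosyltransferase of hydroxycinnamates, at 295, 284 and 262 in cop1-4 BBX22-GFPox, against 91.2, 79.2 and 51.3 in wild type, and 1 fell, HCT, a transferase of lignin precursors, at 998, 1364 and 1429 in cop1-4 BBX22-GFPox, against 2565, 3546 and 3357 in wild type. Both shares were near those over all genes, 9.97% raised and 11.4% lowered. The median of that list was -0.08 and changed sign, to 0.01, with median scaling. Of 38 genes named as UDP-glycosyltransferases 5 rose and 4 fell, or 8 and 9 with the replicate block, shares near those over all genes. They were led by UGT73C1 at 2.28 and GT72B1 at -1.20 (adjusted p up to 0.12 and 0.16 with 1 array left out). Of 11 cytochromes P450 with a family symbol 1 rose, CYP71B26 with 611, 909.9 and 959 in cop1-4 BBX22-GFPox, against 105, 123 and 146 in wild type, and 0 fell. That raised share was near the one over all genes. With the replicate block 2 rose and 1 fell, against 19.5% and 20.8% over all genes. Of 15 glucosinolate and beta-glucosidase genes 1 rose, BGLU33 at 2.68, and 2 fell, BGLU16 at -1.52 and BGLU40 at -1.49, shares near those over all genes. The call of BGLU40 had adjusted p up to 0.088 when 1 array was left out, and 4 genes of the list fell with the replicate block. AT4G13840, CER26 in the gene table and the single wax and cutin gene tested, rose by 1.52 (adjusted p = 0.019, up to 0.066).

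In light signalling, 3 genes of the list were tested. HYH, the homolog of HY5, had 346, 619.7 and 684 in cop1-4 BBX22-GFPox, against 71.4, 137 and 137 in wild type, a log2 change of 2.03 ± 0.30 (adjusted p = 0.0031). FHL, which carries phytochrome A into the nucleus, fell, with 119, 33.5 and 69.6 in cop1-4 BBX22-GFPox, against 355, 244 and 269 in wild type and a log2 change of -1.75. Both calls held without any 1 array. CSN5B, a subunit of the COP9 signalosome, was at 0.10, and GI of the circadian clock at 0.06, with adjusted p = 0.92 and 0.94. Of 40 genes of ubiquitin ligases, conjugating enzymes and the proteasome 0 rose and 2 fell, against 9.97% and 11.4% over all genes. With the replicate block 3 rose and 7 fell, against 19.5% and 20.8%. The lowered ones over all arrays without the block were PUB19, a U-box ubiquitin ligase, with 33.8, 50.8 and 67.4 in cop1-4 BBX22-GFPox, against 525, 341 and 300.1 in wild type, and UBC22, at -0.71 with adjusted p up to 0.14 when 1 array was left out.

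Of 40 transcription factors with a family symbol 1 rose and 9 fell, against 9.97% and 11.4% over all genes. With the replicate block 3 rose and 13 fell, against 19.5% and 20.8%. The raised one was AGL87, a MADS-box gene, at 309.7, 477 and 648 in cop1-4 BBX22-GFPox, against 117, 166 and 102 in wild type. TCP15, of the TCP family that acts on growth and cell division, had 246, 171 and 174 in cop1-4 BBX22-GFPox, against 757, 655 and 659.9 in wild type, a log2 change of -1.70 ± 0.25 (adjusted p = 0.0029). BZIP61 had 522, 407 and 371 in cop1-4 BBX22-GFPox, against 1562, 1169.9 and 1421 in wild type. The others that fell were LBD16, bZIP44, bZIP52, MYBC1, EEL, AT1G06070 and BZIP28, between -1.45 and -0.80, and each of these 7 lost its call without 1 or more arrays, with adjusted p up to 0.15 for LBD16, 0.12 for BZIP28, 0.087 for bZIP52, 0.069 for bZIP44, 0.086 for MYBC1, 0.064 for EEL and 0.1 for AT1G06070. The 5 RNA polymerase subunit genes raised of 12, a family added after the values had been seen, ran from NRPA2 at 0.91 to NRPC2 at 1.52, and 0 of the 5 calls held without any 1 array (adjusted p up to 0.061 for NRPC2).

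Transporters went both ways. Of 20 sugar and nitrate or related transporters 3 rose and 5 fell, against 9.97% and 11.4% over all genes. With the replicate block 4 rose and 8 fell, against 19.5% and 20.8%. The sugar transporter SWEET1 rose, with 503, 946 and 1156 in cop1-4 BBX22-GFPox, against 203, 172 and 233 in wild type, whereas SWEET3 fell, with 56.8, 87.0 and 65.0 in cop1-4 BBX22-GFPox, against 1256, 738 and 538 in wild type. Within the NPF family, AT3G21670 (NPF6.4 in the gene table) had 659, 795 and 762 in cop1-4 BBX22-GFPox, against 92.8, 221 and 126 in wild type and AT2G26690 (NPF6.2) had 425, 741 and 839.7 in cop1-4 BBX22-GFPox, against 5374, 3386 and 3666 in wild type. OCT1, an organic cation transporter, had 77.3, 12.7 and 8.4 in cop1-4 BBX22-GFPox, against 1538, 823 and 961 in wild type, a log2 change of -4.45 ± 0.44 (adjusted p = 0.00057), and its replicates 2 and 3 in the combined genotype were under the offset. The call of each of these 5 held without any 1 array. AT1G68570 (NPF3.1) rose by 1.69 and SWEET16 fell by 0.98 on the log2 scale, with adjusted p up to 0.076 and 0.14 when 1 array was left out.

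Among genes of seed, stress and defence, some members changed by large amounts. OLEO3, an oleosin of seed oil bodies, had 98.9, 47.0 and 35.9 in cop1-4 BBX22-GFPox, against 2323, 2146 and 1959.6 in wild type, a log2 change of -4.74 ± 0.27 (adjusted p = 9.6e-05). It was the 1 of 8 seed reserve genes that was called, 3 being lowered with the replicate block, and summed signals of that list were 9744, 4114 and 3883 in cop1-4 BBX22-GFPox and 11108, 7378 and 7165 in wild type. THI2.2, a thionin, had 1433, 4378 and 5705 in cop1-4 BBX22-GFPox, against 7.4, 7.8 and 7.4 in wild type. Its wild type signals were under the offset on all 3 arrays, and its log2 change of 6.70 ± 0.48 is bounded by the offset. It and the defensin PDF2.1, at 1.71 (adjusted p up to 0.11), were the 2 of 16 defence genes that rose, and 0 fell. That raised share was near the 9.97% over all genes. With the replicate block 3 of the 16 rose and 4 fell, against 19.5% and 20.8% over all genes. The dehydrin gene COR47 had 6507, 5529.8 and 5219.6 in cop1-4 BBX22-GFPox, against 18257, 14450.0 and 17797 in wild type, and RD2 fell by 1.14 on the log2 scale, the 2 of 7 cold and drought genes called, with 2 raised and 2 lowered with the replicate block. ATHSP22.0, a small heat shock protein, had 32.7, 17.6 and 4.8 in cop1-4 BBX22-GFPox, against 215, 208 and 209.9 in wild type. JAL22, JAL33 and JAL34, jacalin-related lectins and a family chosen after its values were seen, changed by -2.98, -2.05 and -1.17, and JAL22 had 764, 1878 and 1751 in cop1-4 BBX22-GFPox, against 10592, 10427 and 11664 in wild type. The call of JAL33 was lost without 2 of the arrays taken singly (adjusted p up to 0.071).

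Among marker genes of tissues, calls fell on single members. Of 3 stomatal lineage genes FMA, the guard cell factor FAMA, rose, with 202, 179.6 and 156 in cop1-4 BBX22-GFPox, against 95.1, 70.6 and 31.5 in wild type (adjusted p = 0.026, up to 0.077 with 1 array left out). SPCH, which starts the lineage, was at 0.90 (adjusted p = 0.13, 0.031 with the replicate block) and the secreted peptide gene STOMAGEN at -0.22. Summed signals of the list were 1181, 951 and 979 in cop1-4 BBX22-GFPox and 590.0, 1269 and 1321 in wild type, which overlapped. YAB5, a leaf polarity factor, rose, with 320.4, 312 and 298 in cop1-4 BBX22-GFPox, against 123, 101 and 123 in wild type, while LSH9 fell by 0.55 on the log2 scale (adjusted p up to 0.13), and the summed signals of the 6 meristem and leaf genes were 1398, 1373 and 1371 in cop1-4 BBX22-GFPox and 1346, 1381 and 1347 in wild type. JKD, a zinc finger factor of the root ground tissue, had 145, 94.8 and 89.5 in cop1-4 BBX22-GFPox, against 462, 273 and 225 in wild type, and GUT2, a xylan synthesis gene of vessels, changed by -0.75 (adjusted p up to 0.11). The part of tissue make-up in the other results was not tested. SIM, an inhibitor of cell division, fell by 1.41 on the log2 scale (adjusted p up to 0.085) and was the 1 of 10 cell cycle and histone genes called, 2 being lowered in the blocked fit.

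Among genes with both means above the offset, the largest raised change was that of MSRB6, a methionine sulfoxide reductase. MSRB6 had 1829.7, 5547 and 6993 in cop1-4 BBX22-GFPox, against 86.1, 69.1 and 45.4 in wild type, a log2 change of 5.54 ± 0.46 (adjusted p = 0.00031). The loci AT3G57020, AT1G22690, AT4G15680 and AT4G18740, which have no symbol in the tables used here, changed by 5.20, 4.35, 3.91 and 3.85. On the lowered side, after ATPMEPCRD, AT5G44440 had 216, 56.0 and 53.2 in cop1-4 BBX22-GFPox, against 7780.4, 7755 and 7459 in wild type, and AT4G22490, AT3G48970, AT1G49570 and AT2G28780 changed by -4.77, -4.45, -4.27 and -3.99. These calls held without any 1 array. AT4G35720, lowered more than AT2G28780, changed by -4.26 (limma adjusted p = 0.024). Its call was lost without 5 of the arrays taken singly, with adjusted p up to 0.075. On the raised side the call of CHIL, given above, did not hold either. Of the 67 probe sets raised and 75 lowered at least 8-fold, 31 and 40 had no single gene in the annotation.

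Some transcripts were near the floor in 1 genotype. With a wild type mean under the offset, 42 probe sets rose, 27 of them with 1 gene, and with the mean of the combined genotype under it 21 fell, 11 with 1 gene. THI2.2 and PME61, given above, were among the brightest of these on the side where they were high. The locus AT1G70820 had 2034, 739 and 803 in cop1-4 BBX22-GFPox, against 7.5, 5.6 and 7.6 in wild type, and AT3G44970 had 223, 1618 and 1550.4 in cop1-4 BBX22-GFPox, against 30.4, 6.8 and 29.2 in wild type. In the other direction AT4G17470 had 2.9, 14.1 and 5.5 in cop1-4 BBX22-GFPox, against 731, 556 and 631 in wild type, and AT2G18010 had 45.2, 9.9 and 7.6 in cop1-4 BBX22-GFPox, against 308, 224 and 241 in wild type. All 4 calls held without any 1 array. The filter on level took the mean over all arrays, those of cop1-4 included. A probe set near the floor in 1 genotype therefore passed more easily where cop1-4 was high. The counts of 42 and 21 depend on the cop1-4 level in this way and do not compare the directions.

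Further genes with a symbol, outside the lists, were chosen after their values were seen, so they give no share of any group. The chloroplast thioredoxin ty2 had 2188, 2572 and 2452 in cop1-4 BBX22-GFPox, against 511, 636 and 504 in wild type, the alkenal reductase AOR had 2249, 2761 and 3287 in cop1-4 BBX22-GFPox, against 709, 602 and 578 in wild type and MAP1C, a methionine aminopeptidase, had 1529, 1629 and 2076 in cop1-4 BBX22-GFPox, against 191, 260.3 and 239.8 in wild type. SPPA, a light-induced protease of thylakoids, changed by 2.07, and LPR1, a ferroxidase of the phosphate response in roots, by 2.14. On the lowered side, SUFE2, which activates sulfur for iron-sulfur clusters, had 253, 103 and 116 in cop1-4 BBX22-GFPox, against 1388, 1513 and 1178 in wild type. The subtilase ATSBT5.2, the sulfurtransferase STR18, the lectin EULS3 and FDH, formate dehydrogenase, changed by -2.80, -2.71, -2.43 and -2.14. Each of these calls held without any 1 array.

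The same genes were read beside cop1-4, which shares the combined genotype's arrays as the other side of a second difference and was fitted with them. Of 15922 probe sets 48 were called between cop1-4 BBX22-GFPox and cop1-4 (0.301%), 45 higher and 3 lower in the combined genotype, 1194 had an unadjusted p under 0.05, and with the replicate block 206 were called (1.29%). The median log2 difference of the combined genotype from cop1-4 was 0.09 over the photosystem list, 0.17 over plastid-encoded genes, -0.25 over the auxin list, -0.07 over wall loosening and -0.13 over the cytoskeleton list. Over the flavonoid list it was 1.49, but 0 of its 6 tested genes were called against cop1-4 without the block. For CHIL the limma adjusted p was 0.97, and 0.013 in the blocked fit. Summed signals of that list were 1041, 7774 and 7151 in cop1-4 BBX22-GFPox and 630, 2363 and 2708 in cop1-4, lowest in replicate 1 of each. HYH had 346, 619.7 and 684 in cop1-4 BBX22-GFPox, 254, 203 and 203 in cop1-4 and 71.4, 137 and 137 in wild type, a log2 difference of 1.18 from cop1-4 (adjusted p = 0.23). PORB had 1109, 678 and 558 in cop1-4 BBX22-GFPox, 1329, 2157 and 2029 in cop1-4 and 8669, 13371 and 15508 in wild type, a difference of -1.24 from cop1-4 (adjusted p = 0.27), and ATPMEPCRD had a difference of -2.54 (adjusted p = 0.075, 0.041 in the blocked fit), so without the block none of these 3 was called against cop1-4.

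Of the 48 probe sets called against cop1-4, 20 were also called against wild type, 14 of them with 1 gene. The combined genotype had the highest mean in 10 of the 20 (7 with 1 gene), the lowest in 3 (2 with 1 gene) and lay between the others in 7 (5 with 1 gene). The locus AT1G23130 had 1326, 1419.8 and 1467 in cop1-4 BBX22-GFPox, 57.1, 20.5 and 26.1 in cop1-4 and 23.9, 51.2 and 43.2 in wild type, with log2 differences of 4.51 from wild type and 4.64 from cop1-4 (adjusted p = 0.00011 and 0.00023). Its arrays were high in the combined genotype and low in both others. AGL87 had 309.7, 477 and 648 in cop1-4 BBX22-GFPox, 68.3, 68.3 and 79.8 in cop1-4 and 117, 166 and 102 in wild type, again highest in the combined genotype. The locus AT1G12080 was lowest in the combined genotype and highest in wild type, with 1039, 1179 and 949 in cop1-4 BBX22-GFPox, 3177, 5543 and 4928 in cop1-4 and 16059.9, 10735 and 12108 in wild type. AT3G42800 was lowest in the combined genotype, with 116, 122 and 137 in cop1-4 BBX22-GFPox, 322, 587 and 532 in cop1-4 and 402, 407 and 419.5 in wild type.

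In all 7 probe sets where the combined genotype lay between the others, cop1-4 was lowest. The other probe sets called higher against cop1-4, AGL87 among them, also had their lowest mean in cop1-4, whether or not they were called against wild type. The exception was a probe set with no single gene in the annotation, with means of 1244 in cop1-4 and 373 in wild type. The labels do not say whether the 3 lines share one background apart from the ecotype, so its part in the low cop1-4 signals cannot be told apart from that of the genotype. AT5G45500 had 727, 788 and 821 in cop1-4 BBX22-GFPox, 9.3, 8.4 and 8.4 in cop1-4 and 2270.4, 2452 and 2466 in wild type, a log2 difference of -1.59 from wild type and 4.59 from cop1-4, called in both. The spread within each genotype was small beside these differences. ZW9 had 1729, 1743 and 1545 in cop1-4 BBX22-GFPox, 51.3, 51.1 and 52.7 in cop1-4 and 5394, 3476 and 3727 in wild type, with differences of -1.29 and 4.47. AT4G07820 had 684, 549 and 795 in cop1-4 BBX22-GFPox, 46.3, 58.5 and 38.6 in cop1-4 and 2484, 9430.0 and 11592 in wild type. AT5G51630 and AT1G20390 had the same order, at -1.48 and -1.28 from wild type and 1.81 and 2.69 from cop1-4, the second with adjusted p against wild type of up to 0.12 when 1 array was left out. With no offset both lost that call, with adjusted p = 0.084 and 0.2. Since the cop1-4 means of AT5G45500 and AT5G51630 were under the offset, their differences from cop1-4 are bounded by it.

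**Figure D5:**
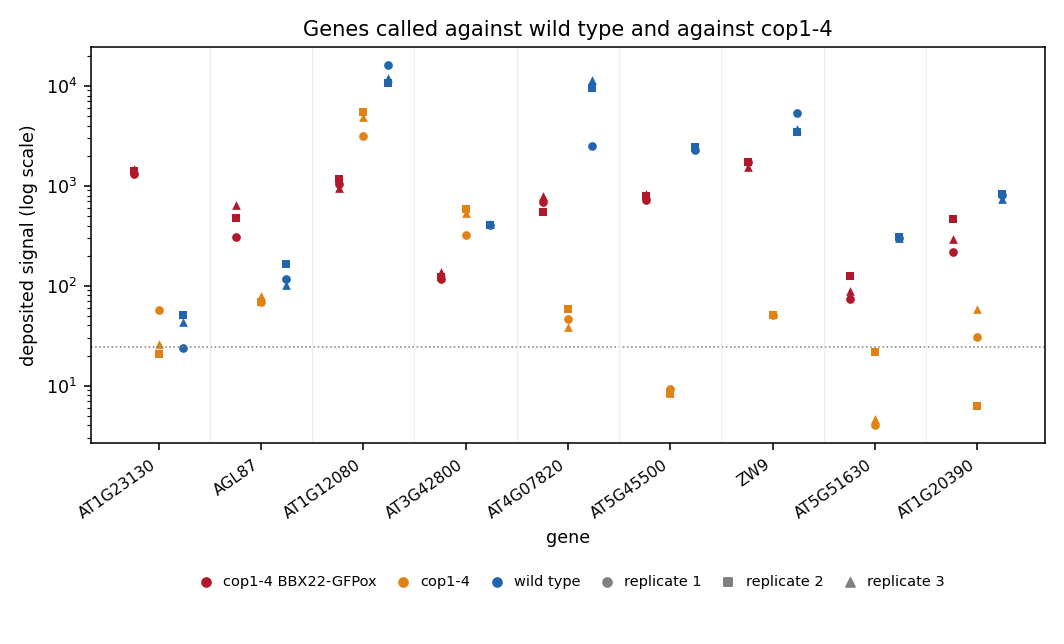
Deposited signals (vertical log axis) of the 9 named genes called both against wild type and against cop1-4, on each array of cop1-4 BBX22-GFPox (red), cop1-4 (orange) and wild type (blue), with replicates 1, 2 and 3 as circles, squares and triangles and the offset of 24.5 as a dotted line. AT1G23130 and AGL87 are highest in cop1-4 BBX22-GFPox, AT1G12080 and AT3G42800 lowest, and the remaining 5 genes lie between a low cop1-4 and a high wild type.

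Several hormone and housekeeping lists held no call without the replicate block. None of the 5 gibberellin and brassinosteroid genes, 3 ethylene genes, 6 cytokinin and jasmonate genes, 5 nitrogen and sulfur genes or 3 cytosolic translation genes was called. With the block, GID1C, a gibberellin receptor, MYC3, a factor of jasmonate response, and APS4 and OASA2, of sulfur assimilation, were called lowered, and PGY1 and AT1G77750 of the translation list raised, with adjusted p = 0.049, 0.0075, 0.012, 0.026, 0.038 and 0.016 in limma. EXO, a gene induced by brassinosteroid, was the member of largest change in its list, with 7563, 2683 and 2545 in cop1-4 BBX22-GFPox, against 7133, 8779.9 and 7758 in wild type and adjusted p = 0.19: the replicate 1 pair was nearly equal and the other pairs were far apart. GAPC2, a glycolytic enzyme often taken as a reference, had 21650.3, 17617 and 20129 in cop1-4 BBX22-GFPox, against 11030.1, 15514 and 14310.0 in wild type, a log2 change of 0.55 (adjusted p = 0.096). APS4, an ATP sulfurylase, was at -0.81 with adjusted p = 0.064 without the block. A p that misses the threshold with 3 arrays a genotype does not show that these genes were alike.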

How the data were processed

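Biotin-labelled RNA of 9 seedling samples was hybridised to Affymetrix arrays. The deposited values are intensities on a linear scale made by the authors with MAS5, per the submitters' processing notes; neither its version nor its target intensity or filters are stated in the labels. Every array had a trimmed mean of 495 or 496, and the median signal was 172 ± 12.6 in cop1-4 BBX22-GFPox and 182 ± 8.79 in wild type (SD, n = 3; exact permutation test, two-sided, p = 0.2, the smallest possible being 0.1). The number of arrays limits the precision.

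Here log2(signal + 24.5) was taken, probe sets with a mean under the 30th percentile were dropped, and limma 3.58.1 in R 4.3.3 (lmFit, eBayes with an intensity trend) was fitted over the 9 arrays, with two-sided tests and Benjamini-Hochberg adjustment over all 15922 probe sets. The fit was tested on simulated data with known changes. The simulated arrays varied independently, without the shared deviations of same-numbered arrays, so that test does not cover them. Probe sets were named from the platform annotation, and 13436 of 13513 with 1 gene matched a table of the TAIR10.1 assembly used for names only; chromosome membership came from the same table. Same-numbered arrays deviated together in all 3 pairs (correlations given above), so the replicate number was taken to pair them, although it did not set replicate 2 apart from replicate 3.

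Members and lists were chosen with earlier results of these data known. Named genes were the 10 raised and 10 lowered of largest change with both means above the offset and the 5 brightest each way with 1 mean under it. Up to 3 each way called per list or else the largest, and up to 6 called in both differences or lying midway, were added. Except for the largest members of lists with no such call, these genes had to have arrays that did not overlap. That separation was therefore a rule of choice. Further list members, added families and genes with a symbol outside the lists were named after their values were seen. Alternatives were the replicate block, other sets of arrays, scaling, offset, filter, array weights, no trend and leaving out each array. Promoter sequences were not used here.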

Additional observations from a re-analysis of the deposited data

How the results depend on the processing

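The number of calls moved with the treatment of replicate 1, and the cause was not tested. Against 3427 calls (1561 raised, 1866 lowered), the replicate block gave 6479 (3011 and 3468), the block on the 6 arrays alone 5864 (2762 and 3102), replicate 1 against replicates 2 and 3 as a batch 7250 (3333 and 3917), array weights 9389 (4246 and 5143) and replicates 2 and 3 only 9590 (4383 and 5207). Calls of at least 2-fold numbered 2504, against 4013 with replicates 2 and 3 only and 3979 with array weights. Leaving out 1 array gave 1819 to 4820 calls, 840 to 2228 raised, 957 to 2592 lowered and 1654 to 3114 of at least 2-fold. Single omissions that moved the total by over 1.5 times left 2159, 1994 and 1836 calls without wild type replicates 1, 2 and 3, and 1859 and 1819 without cop1-4 BBX22-GFPox replicates 2 and 3. Between cop1-4 BBX22-GFPox and cop1-4, 48 were called, against 206 with the replicate block, 432 with the batch, 3510 with array weights, 3856 with replicates 2 and 3 only, 27 with the filter at the 50th percentile and 11 to 372 with 1 array left out. Of the named genes, GI and EXPA7, neither of them called, changed sign when 1 array was left out, GI between -0.33 and 0.60 and EXPA7 between -0.019 and 1.53. The replicate block ended no call. A setting with 1 array left out keeps at least 2 arrays a genotype.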

Other observations

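Some gene groups with few members were not described above. Of 15 serine carboxypeptidase-like genes, a family chosen after its values were seen, 4 fell and 1 rose, or 7 and 2 with the replicate block. The gene scpl25 had 678, 1336 and 1166 in cop1-4 BBX22-GFPox, against 4150.2, 3452 and 4199 in wild type, and scpl40 had 48.2, 96.0 and 83.8 in cop1-4 BBX22-GFPox, against 452, 468 and 562 in wild type, while scpl42 rose by 0.97 on the log2 scale (adjusted p up to 0.12 with 1 array left out). The cell wall invertase family member cwINV6 had 73.7, 60.1 and 60.5 in cop1-4 BBX22-GFPox, against 213, 256 and 226 in wild type, with adjusted p = 0.0022 in limma, and was the 1 of 6 starch and sucrose genes called, with 1 raised and 1 lowered under the replicate block. NDB3, an alternative NADH dehydrogenase of mitochondria, was the 1 of 11 nuclear genes of respiration called, at -1.09 (adjusted p up to 0.11), and with the replicate block 2 rose and 1 fell. CYTC-2, a cytochrome c gene, was equal in the replicate 1 arrays and higher in the others, at 344, 3706 and 4222 in cop1-4 BBX22-GFPox, against 349, 746 and 527 in wild type (adjusted p = 0.27, 0.024 with the replicate block).

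The most negative change of any probe set belonged to one with no gene in the annotation used here. It had 44.3, 17.3 and 26.5 in cop1-4 BBX22-GFPox, against 6695, 13666 and 11249 in wild type, a log2 change of -7.58 ± 0.32 (limma adjusted p = 3.8e-05). The most positive change of a called probe set without a gene had 6759, 2556 and 2753 in cop1-4 BBX22-GFPox, against 66.2, 17.8 and 82.0 in wild type, a log2 change of 5.62 ± 0.79 (limma adjusted p = 0.0024).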
